A study of Danio rerio with 10 samples.

Results

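Transcripts of the 10 genes that carry carbon from acetyl-CoA through mevalonate to squalene were followed in whole embryos of the zebrafish, Danio rerio, pooled at 33 hours post fertilization. The genes are acat2, hmgcs1, hmgcra, hmgcrb, mvk, pmvk, idi1, fdps, ggps1 and fdft1. They were found by exact match of their symbol, and all 10 were among the 32266 genes of the deposited table. All 10 also passed a filter on low counts that left 20802 genes for testing. The pathway had been picked out because sterol synthesis genes were higher in mutants in an earlier look at the same libraries, so the difference between the genotypes was not tested afresh for them: values are given as a description, and where a call of a fit over all genes is mentioned for one of them or for another sterol gene, it restates the values behind the choice and supports nothing.

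The double mutant embryos (rbpms2a-/-; rbpms2b-/-) lacked intact copies of the zebrafish genes that code for Rbpms2, an RNA-binding protein of heart muscle and other tissues. They were picked by eye, and each of their 5 libraries came from polyA RNA of a pool of 10 embryos. The other 5 libraries came from pools of 10 control siblings, which carry the genotype label wt. Because the sorting was by eye, carriers of either mutation may be among them, and levels in controls are those of siblings whose single genotypes are not known. Both groups were of the same age, and no label gives a drug or other agent. Libraries carry the numbers 1, 2, 3, 4 and 6 in both groups and are called mutant 1, control 1 and so on. Nothing in the labels says what a number stands for, so a p-value measures the spread between these pools, which may be partly technical.

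The mevalonate pathway builds isoprenoid units in the cytosol and the endoplasmic reticulum. Acetyl-CoA is condensed to HMG-CoA, HMG-CoA reductase makes mevalonate from it in the step that limits the rate and that statins block, and kinases, a decarboxylase and an isomerase turn mevalonate into the building blocks that are joined to farnesyl diphosphate. Farnesyl diphosphate then goes to squalene and on to cholesterol, or to geranylgeranyl groups for proteins, to dolichol and to ubiquinone. In vertebrate cells SREBP transcription factors raise the genes of this route together when membrane sterol is low. In zebrafish embryos the isoprenoid output of the reductase is known for its part in germ cell migration and in the formation of the heart tube.

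Total counts were between 29.1 and 35.2 M (M, 1000000 counts) in mutant libraries and between 21.5 and 36.0 M in control libraries, the lowest being control 6. The members were covered by 54.8 (pmvk in control 4) to 3325 counts (fdps in mutant 4) per library. The targeted gene rbpms2a was at 2.42 to 3.91 CPM in mutants and at 4.25 to 7.05 CPM in controls (CPM, counts per 1000000 after scaling), while rbpms2b, at 11.98 to 22.2 CPM in mutants and 10.3 to 18.3 CPM in controls, overlapped between the groups. Marker genes of 7 tissues were checked, since whole embryos hold all of them. Summed markers overlapped between the groups for all 7. Of the 4 heart muscle markers, myh6, the atrial myosin heavy chain gene, alone had an edgeR adjusted p under 0.05. Its level was 7.26 ± 1.25 CPM in mutants and 15.5 ± 1.00 CPM in controls (SD, n = 5 each). It was lower in the mutant of all 5 pairs (log2 fold change -1.10, edgeR adjusted p = 0.0112 without the block). The remaining heart markers did not share this fall, with unblocked log2 fold changes of 0.11 (vmhc), 0.08 (myl7) and -0.0050 (tnnt2a). Counted by pair, mutants exceeded controls in 5 (vmhc), 3 (myl7) and 2 (tnnt2a) of 5. The median log2 fold change of the 4 markers was 0.035. In 5 of 5 pairs of the same number the mutant had the higher liver sum (1264 to 2243 CPM in mutants and 1248 to 1862 CPM in controls), although fabp10a, which defines hepatocytes, averaged 0.259 CPM in mutants and 0.185 CPM in controls. No single liver marker tested was higher in all pairs (tfa in 4, cp and serpina1l in 3 of 5), and none passed in edgeR. The sums of the other tissues were higher in 3 (yolk and epidermis), 2 (neurons) or 1 (heart, skeletal muscle and erythroid) of 5 pairs. The erythroid markers were split, with hbbe1.1 higher in 1 and alas2 in 5 of 5 pairs, and neither passed in edgeR. Of 6 yolk syncytial markers, apoa4b.2 alone was higher in 5 of 5 pairs, as were 5.62% of all tested genes. It was at 208 ± 98.2 CPM in mutants and 167 ± 86.3 CPM in controls (SD, n = 5 each), with an edgeR adjusted p of 0.00558 with the replicate number as a block, where 0.255% of all genes passed. The other yolk markers were each higher in 3 of 5 pairs, with blocked log2 fold changes from -0.0038 (apoa2) to 0.08 (apobb.1), and none passed. The summed yolk level was 15732 to 21861 CPM in mutants and 15777 to 19678 CPM in controls. The part of these tissues in the levels below was not tested. In bulk RNA, more cells of a type and more RNA per cell cannot be told apart.

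Across the pathway, the estimate for mutants over controls was above 0 for 9 of 10 genes and close to 0 for hmgcrb. The largest were those of hmgcra (log2 fold change 0.46, standard error (SE) 0.273), fdft1 (0.46, SE 0.119) and fdps (0.40, SE 0.0735), and the smallest was that of hmgcrb (-0.0057, SE 0.0754). The median over the 10 genes was 0.24, beside 0.0022 over all 20802 tested genes, of which 50.7% had an estimate above 0. In no gene but fdps and fdft1 did the 5 mutants lie clear of the 5 controls. With edgeR's quasi-likelihood test and adjustment over all tested genes, 0 of 10 members passed the threshold of 0.05, where 0.00481% of all genes did. Unadjusted p-values under 0.05 went with higher levels in 4 of 10 members (hmgcs1, idi1, fdps and fdft1) and in 1.3% of all genes. Libraries of the same number deviated together over all genes, and with the number as a block 2 of 10 members, hmgcs1 and fdps, passed, where 0.255% of all genes did. DESeq2 called fdps alone without the block (0.0288% of the 20801 genes it gave an adjusted p). With the block it called hmgcs1 and fdps (0.475% of 19592 such genes). Nothing is read from these counts, since the genes had been picked with this contrast known.

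**Figure D1:**
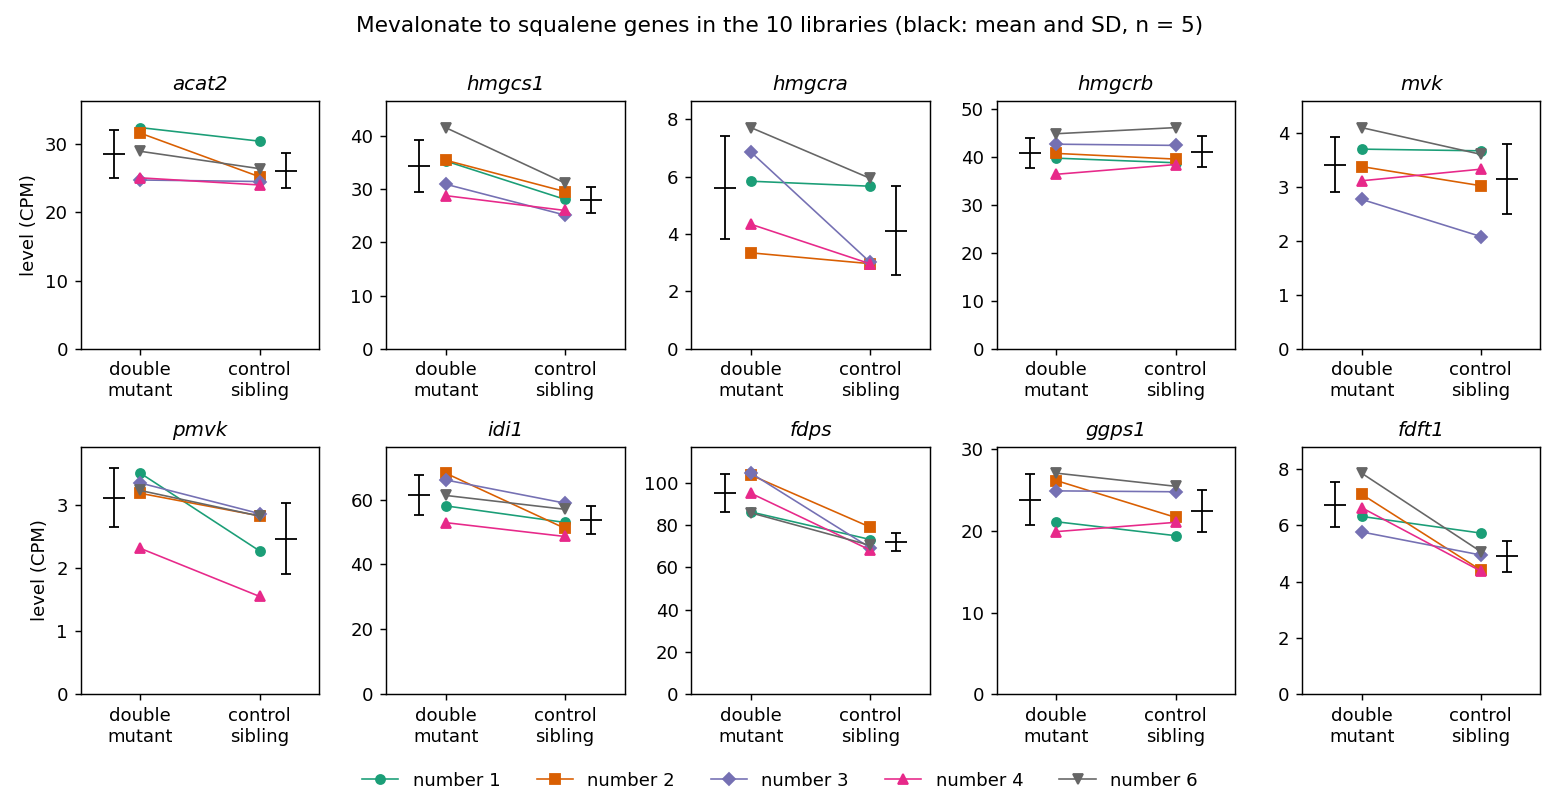
Level of each of the 10 genes (CPM, vertical axes from 0, a scale for each gene) in the 5 double mutant libraries and the 5 control sibling libraries, with lines joining libraries of the same number and black bars for mean ± SD (n = 5). The mutants of fdps (85.8 to 105 CPM) and fdft1 (5.77 to 7.85 CPM) lie above all controls (68.2 to 79.0 CPM and 4.37 to 5.72 CPM), while the hmgcrb lines are flat.

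The pathway was taken step by step. Acat2 (ENSDARG00000007127) codes for the cytosolic thiolase that joins acetyl-CoA into acetoacetyl-CoA. Its level was 32.4, 31.6, 24.7, 25.1 and 28.9 CPM in mutants 1, 2, 3, 4 and 6, and 30.4, 25.2, 24.5, 24.01 and 26.4 CPM in controls of the same numbers. Libraries numbered 1 were the highest of both groups, and the ranges overlapped. The log2 fold change was 0.13 (SE 0.0982), with pair ratios between 0.01 and 0.33.

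Hmgcs1 (ENSDARG00000103025), the cytosolic HMG-CoA synthase, was more even across the pairs. It was at 35.3, 35.5, 31.0, 28.8 and 41.6 CPM in mutants 1, 2, 3, 4 and 6, and at 28.1, 29.6, 25.2, 26.0 and 31.2 CPM in the controls. Libraries numbered 6 were the highest of both groups. Mutants 3 and 4 lay within the range of the controls, although the mutant was the higher library of all 5 pairs. Pair ratios ran from 0.15 to 0.42 on the log2 scale. The log2 fold change was 0.30 (SE 0.101) without the block and 0.29 (SE 0.0525) with it, where it passed the threshold. It no longer did so without pair 1, 2, 3 or 6. The means were 34.4 ± 4.92 CPM in mutants and 28.0 ± 2.48 CPM in controls (SD, n = 5 each).

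HMG-CoA reductase has 2 genes in the table, hmgcra and hmgcrb, whose difference in response was not tested. Hmgcrb (ENSDARG00000105206) was at 39.8, 40.8, 42.7, 36.4 and 44.9 CPM in mutants 1, 2, 3, 4 and 6, and at 38.8, 39.6, 42.5, 38.5 and 46.2 CPM in the controls. Its libraries were close together in both groups, with a coefficient of variation of 7.77% in mutants and 7.88% in controls, and libraries numbered 6 were the highest of both. Pair ratios of hmgcrb lay between -0.08 and 0.04, and its estimate changed sign among the alternatives, from -0.04 to 0.04. Hmgcra (ENSDARG00000052734) was at 5.84, 3.35, 6.86, 4.34 and 7.72 CPM in mutants, and at 5.67, 2.97, 3.02, 2.96 and 5.94 CPM in controls. Here 3 controls lay near 3 CPM and the controls numbered 1 and 6 near 6 CPM, while the mutants were spread between these levels and above. The coefficient of variation was 31.8% in mutants and 37.7% in controls, the largest of the 10 genes in both groups. The pair ratio was 1.18 for number 3, against 0.04 to 0.55 for the others, and without pair 3 the blocked log2 fold change was 0.28, where it was 0.46 with all pairs.

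Per length of transcript, hmgcra was the minor reductase gene in every library. In FPKM (fragments per kilobase of transcript and per 1000000), as deposited, hmgcra was at 1.71, 0.98, 2.08, 1.23 and 2.25 FPKM in mutants, and at 1.66, 0.84, 0.87, 0.82 and 1.70 FPKM in controls. Hmgcrb was at 11.2 to 13.7 FPKM in mutants and at 11.7 to 13.6 FPKM in controls. The share of hmgcra in the sum of both was 7.23 to 14.1% in mutants and 6.18 to 12.04% in controls, so the ranges overlapped. The sum itself was 14.3 ± 1.39 FPKM in mutants and 13.8 ± 1.07 FPKM in controls (SD, n = 5 each), and the ranges overlapped. Within pairs the sum in the mutant minus that in the control was 0.46, 0.38, 1.34, -0.01 and 0.58 FPKM for numbers 1, 2, 3, 4 and 6, which was not tested.

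The mevalonate kinases were among the lowest genes of the pathway. Mvk (ENSDARG00000004130), which phosphorylates mevalonate, was at 3.70, 3.38, 2.77, 3.11 and 4.10 CPM in mutants 1, 2, 3, 4 and 6, and at 3.67, 3.02, 2.08, 3.33 and 3.60 CPM in controls. Its log2 fold change of 0.12 (SE 0.173) was smaller than its SE and turned to -0.0052 without control 3, the lowest library. Pmvk (ENSDARG00000070798), which adds the next phosphate, was at 3.51, 3.19, 3.35, 2.31 and 3.23 CPM in mutants, and at 2.27, 2.83, 2.86, 1.55 and 2.83 CPM in controls. Libraries numbered 4 were the lowest of both groups, and the mutant was the higher of all 5 pairs, by 0.17 to 0.62 log2 units. The log2 fold change of pmvk was 0.34 (SE 0.189). Counts of mvk were 69 to 134 and those of pmvk 54.8 to 126 per library, which limits the precision of both.

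Mevalonate diphosphate decarboxylase, the step between pmvk and idi1, is not among the 10 genes. Of its zebrafish genes, mvdb was below the filter, at 0.0962 CPM in mutants and 0.241 CPM in controls. Mvda was at 8.86 ± 1.55 CPM in mutants and 6.89 ± 1.29 CPM in controls (SD, n = 5 each), higher in 5 of 5 pairs, with a log2 fold change of 0.36 (SE 0.157). Its mutants and controls overlapped, and it did not pass over all genes, with an edgeR adjusted p of 0.122 under the block.

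Idi1 (ENSDARG00000019976), the isomerase of isopentenyl diphosphate, was the second most abundant member per length. It was at 58.1, 68.1, 66.0, 52.9 and 61.3 CPM in mutants 1, 2, 3, 4 and 6, and at 52.9, 51.1, 58.9, 48.6 and 57.0 CPM in controls. The mutant was the higher library of all 5 pairs, by 0.10 to 0.41 log2 units, and the ranges overlapped through mutants 1 and 4. The log2 fold change was 0.19 (SE 0.0810).

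Fdps (ENSDARG00000040890) codes for farnesyl diphosphate synthase, whose product is the branch point of the pathway. Its level was 86.2, 104, 105, 95.01 and 85.8 CPM in mutants 1, 2, 3, 4 and 6, and 73.2, 79.0, 69.3, 68.2 and 70.4 CPM in controls. All mutants lay above all controls, and mutants 2 and 3 were the highest. The means were 95.02 ± 9.05 CPM in mutants and 72.0 ± 4.34 CPM in controls (SD, n = 5 each), so that mutants held 132% of the control level. Pair ratios ran from 0.24 (number 1) to 0.59 (number 3). The estimate stayed between 0.35 and 0.44 over 24 alternative settings.

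Past farnesyl diphosphate, the 10 genes hold 1 gene for each of 2 exits. Fdft1 (ENSDARG00000101062), squalene synthase, commits carbon to sterols. It was at 6.32, 7.11, 5.77, 6.63 and 7.85 CPM in mutants 1, 2, 3, 4 and 6, and at 5.72, 4.41, 4.95, 4.37 and 5.07 CPM in controls. Mutant 3, the lowest mutant, lay just above control 1, the highest control, and the pair ratio was 0.14 and 0.22 for numbers 1 and 3, against 0.60 to 0.69 for numbers 2, 4 and 6. The means were 6.73 ± 0.793 CPM in mutants and 4.90 ± 0.554 CPM in controls (SD, n = 5 each). Ggps1 (ENSDARG00000023627), geranylgeranyl diphosphate synthase, leads to protein prenylation instead. It was at 21.1, 26.1, 24.9, 19.9 and 27.0 CPM in mutants, and at 19.4, 21.6, 24.8, 21.0 and 25.4 CPM in controls. The ranges of ggps1 overlapped almost fully, with pair ratios from -0.08 to 0.27 and a log2 fold change of 0.09 (SE 0.107). Whether fdft1 and ggps1 differ from each other in their response was not tested.

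**Figure D2:**
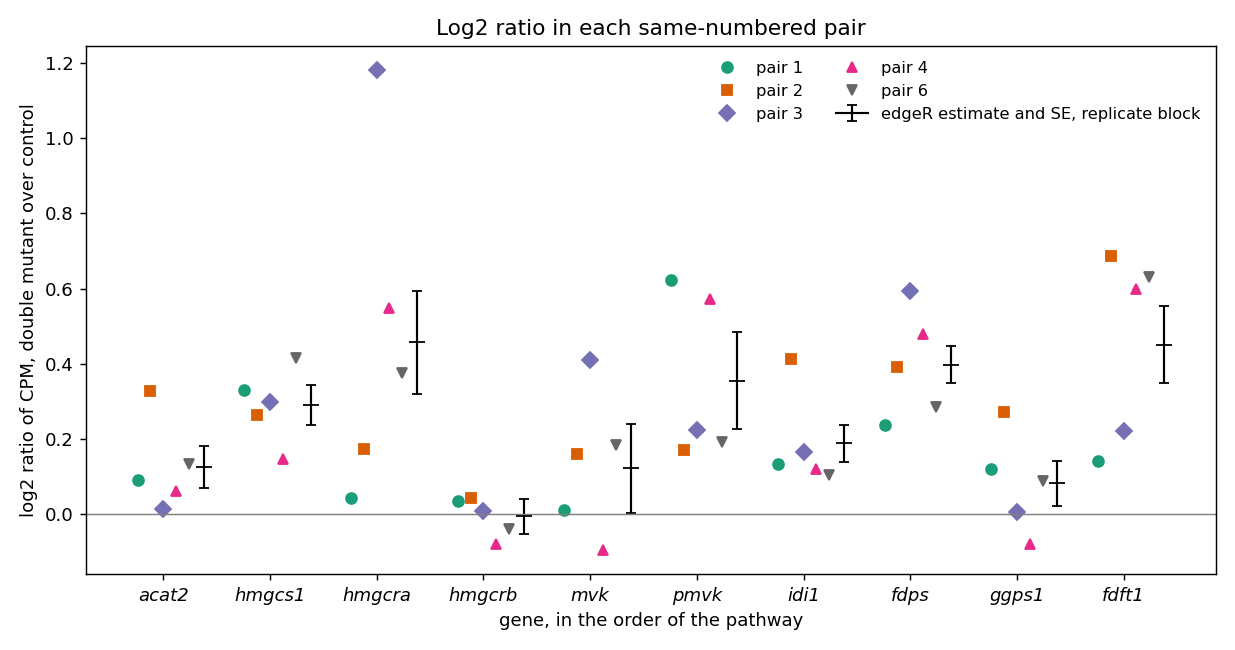
Log2 ratio of CPM (double mutant over control sibling) in each pair of the same number, for the 10 genes in pathway order, with the blocked edgeR estimate ± SE in black at the right of each gene. All 5 pairs lie above 0 for acat2, hmgcs1, hmgcra, pmvk, idi1, fdps and fdft1, and the point far from the rest is hmgcra in pair 3 (1.18).

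Taken by pair, the mutant was the higher library for 10 of 10 genes in pairs 1, 2 and 3, for 7 in pair 4 and for 9 in pair 6. The median ratio of the 10 genes was 0.13, 0.27, 0.22, 0.13 and 0.19 log2 units in pairs 1, 2, 3, 4 and 6, where the medians of all tested genes lay between -0.0010 and 0.0054. For 7 genes (acat2, hmgcs1, hmgcra, pmvk, idi1, fdps and fdft1) the level was higher in the mutant of all 5 pairs, as were 5.62% of all tested genes. Ranges without overlap and higher mutants were found for 2 members and for 0.312% of all tested genes. The exceptions to the common direction were hmgcrb in pairs 4 and 6 and mvk and ggps1 in pair 4. The gene that led a pair changed: pmvk in pair 1, hmgcra in pair 3 and fdft1 in pairs 2, 4 and 6.

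The levels per length spanned a wide range along the pathway. In mutants the order by mean FPKM was fdps (59.4 ± 4.96), idi1 (19.9 ± 1.99), acat2 (16.6 ± 2.12), hmgcs1 (13.8 ± 1.96), hmgcrb (12.7 ± 0.936), ggps1 (7.34 ± 0.899), fdft1 (5.63 ± 0.584), mvk (2.17 ± 0.312), hmgcra (1.65 ± 0.542) and pmvk (1.23 ± 0.188; SD, n = 5 each). In controls it was fdps (45.1 ± 2.83), idi1 (17.3 ± 1.37), acat2 (15.1 ± 1.56), hmgcrb (12.6 ± 0.808), hmgcs1 (10.7 ± 1.26), ggps1 (7.004 ± 0.759), fdft1 (4.13 ± 0.249), mvk (1.98 ± 0.393), hmgcra (1.18 ± 0.459) and pmvk (0.964 ± 0.223; SD, n = 5 each). The groups shared this order except for hmgcs1 and hmgcrb, which changed places. Hmgcs1 was the higher of both in 4 of 5 mutants, and hmgcrb in 5 of 5 controls. The ranges of neighbours in the order overlapped between idi1 and acat2, hmgcs1 and hmgcrb, mvk and hmgcra, and hmgcra and pmvk in both groups, and also between acat2 and hmgcs1 and between ggps1 and fdft1 in mutants. Within libraries the order was steadier: idi1 was above acat2, acat2 above hmgcs1 and ggps1 above fdft1 in 5 of 5 mutants. In controls idi1 was above acat2 in 4 of 5. Mvk was above hmgcra in 5 of 5 controls and in 4 of 5 mutants. The pair with the least settled order was hmgcra and pmvk in controls, where hmgcra was the higher in 3 of 5. The 10 genes together held 140 ± 5.89 FPKM in mutants and 116 ± 5.85 FPKM in controls (SD, n = 5 each), without overlap (132 to 146 and 107 to 122 FPKM), and fdps made up 38.7 to 46.0% of that sum in mutants and 37.0 to 41.1% in controls. The genes had been picked with this contrast known, so the gap between the sums restates the choice and supports nothing. Of the 10 genes fdps had the largest difference between group means in FPKM, and the sum does not speak for each gene.

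**Figure D3:**
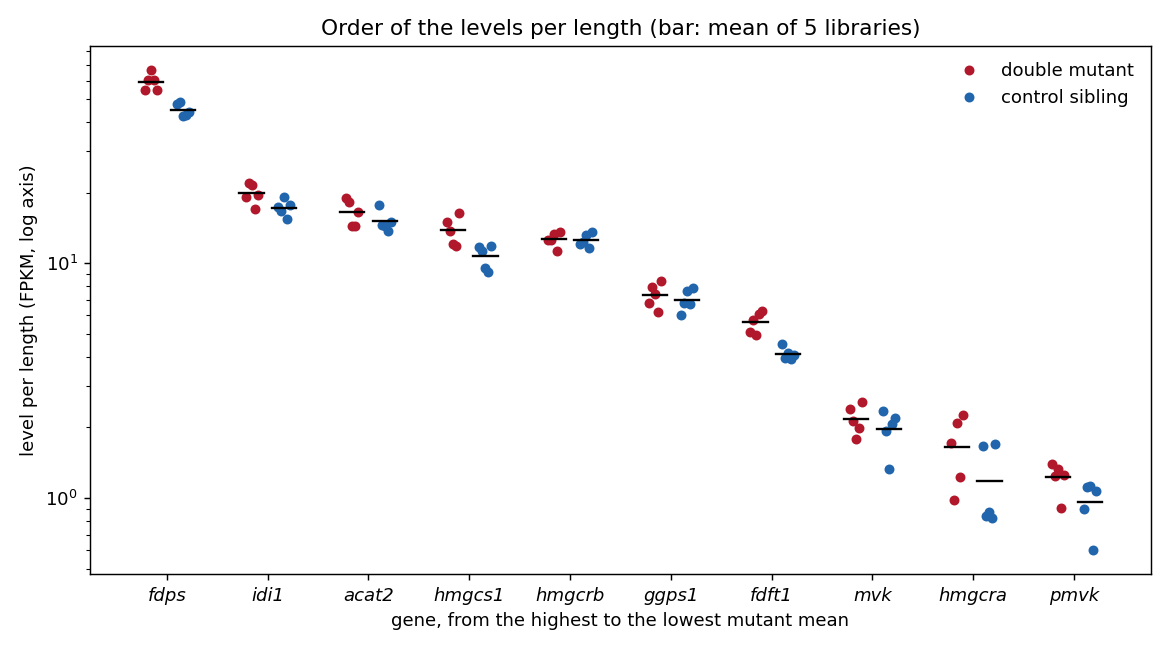
Level per length (FPKM, log axis) of the 10 genes in the double mutant (left of each gene) and control sibling libraries, ordered by the mutant mean, with bars for the mean of 5 libraries. Fdps stands above the other genes in every library (42.4 FPKM or more, where no other member exceeds 22.01 FPKM), and hmgcra splits into a low and a high set of controls.

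Counts that are not whole show that reads were shared out between loci. At a tolerance of 0.005 counts, those of hmgcrb, mvk and fdft1 were whole in all 10 libraries. Counts were not whole in 1 library for hmgcs1 and for hmgcra, in 3 for pmvk, in 4 for acat2, in 6 for ggps1, in 7 for idi1 and in 10 for fdps. Among all tested genes, 47.1% were whole in every library and 11.2% in none. The level of fdps, and with it the largest part of the summed FPKM, is therefore uncertain to an extent that the table does not show. Of the 3 genes with whole counts throughout, fdft1 had a log2 fold change of 0.46, mvk 0.12 and hmgcrb -0.0057, and their median was 0.12.

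How the genes varied between replicate numbers was tested separately, since the choice of genes had not used it. In the edgeR fit with genotype and number, the F test over the 4 number coefficients passed for 6 of 10 members, beside 43.3% of all tested genes. The members that passed were hmgcra (adjusted p = 0.00298), hmgcs1 (0.00458), ggps1 (0.0105), acat2 (0.0136), hmgcrb (0.0328) and idi1 (0.0374). The distance between the highest and the lowest number was 1.097 log2 units for hmgcra and 0.28 to 0.40 for the other 5. Pmvk and mvk spanned 0.70 and 0.67 log2 units at low counts and missed the threshold (0.0547 and 0.0569), and fdps (0.22; adjusted p = 0.121) and fdft1 (0.26; 0.577) had the smallest spans. The median span was 0.37 log2 units over the members and 0.45 over all tested genes. Hmgcs1 was low in libraries numbered 3 and 4 and high in those numbered 6 in both groups. Acat2 was highest in number 1, and pmvk lowest in number 4. Hmgcra was high in number 6 and low in numbers 2 and 4 in both groups, whereas in number 3 the mutant lay 0.35 above its group's mean and the control 0.37 below.

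**Figure D4:**
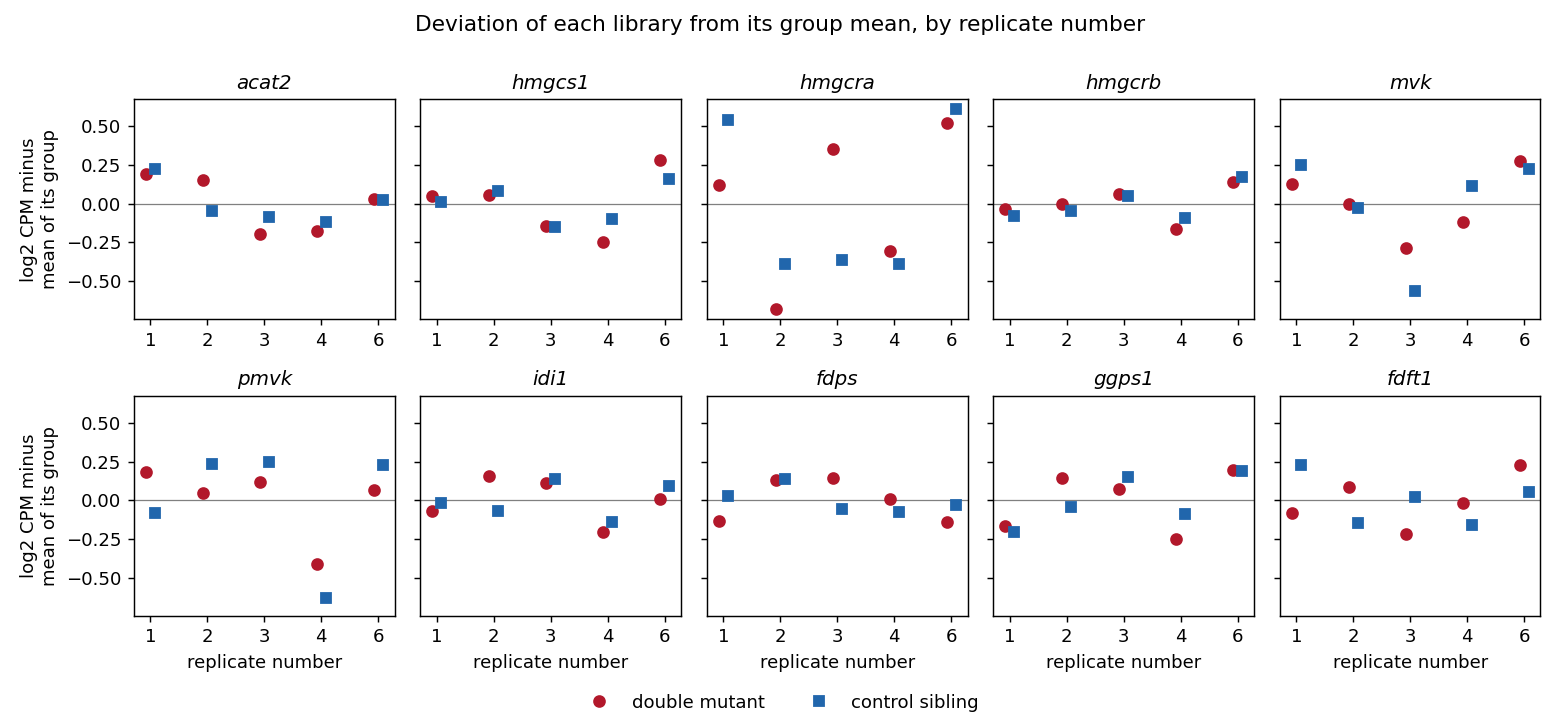
Deviation of each library from the mean of its own group (log2 CPM, vertical axis shared by all panels) by replicate number, for double mutants (circles) and control siblings (squares). The groups lie close together within each number for hmgcrb and hmgcs1, and the widest gap between them is that of hmgcra in number 3 (0.35 in the mutant, -0.37 in the control).

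Other genes of sterol and lipid synthesis were set beside the members from lists chosen by function, with earlier results of these libraries known. The route from squalene to cholesterol had 12 tested genes with a median log2 fold change of 0.34, beside 0.0022 over all tested genes, and 11 of the 12 had blocked estimates above 0. Without the block edgeR and DESeq2 called 0, and 4 had an unadjusted edgeR p under 0.05, as did 1.95% of all tested genes. With it, 9 had an unadjusted p under 0.05, 8 of them higher in mutants, where over all genes 10.5% had such a p and 5.67% were higher with it. After adjustment, where 0.178% of all genes rose past the threshold, 1 rose and 0 fell: cyp51, lanosterol demethylase, was at 30.4 ± 6.15 CPM in mutants and 22.8 ± 3.80 CPM in controls (SD, n = 5 each). Its level was the higher one in all 5 mutants of a pair, the blocked log2 fold change was 0.41 and the edgeR adjusted p was 0.00199. The median, the counts and this call restate the earlier look at sterol genes and are no independent support. The exception in direction was lbr, which codes for the lamin B receptor as well as a sterol reductase activity, at 225 ± 13.3 CPM in mutants and 240 ± 7.50 CPM in controls (SD, n = 5 each). Its blocked estimate was -0.09, and the mutant was the higher library of 0 of 5 pairs. The unadjusted edgeR p was 0.0286 with the block, and lbr did not pass after adjustment.

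Genes that regulate the pathway or that take up or export sterol had a median near 0. Of 18 tested genes for SREBP processing and sterol sensing, uptake or export, 0 passed with or without the block in edgeR and in DESeq2. Over all genes with an adjusted p in each fit, these fits called 0.00481% to 0.475%, so nothing is read from this count. An unadjusted edgeR p under 0.05 was found for 0 without the block and for 4 with it, all higher in mutants, beside the 5.67% of all genes. Their median was 0.02 without and 0.01 with the block. Ldlrb, an LDL receptor gene, had the smallest p of this list under the block (log2 fold change 0.18, higher in 5 of 5 pairs, edgeR adjusted p = 0.123), and abcg1, a sterol exporter, the smallest without it (-0.51, SE 0.243, edgeR adjusted p = 0.9999). The level of abcg1 was low, at 0.429 ± 0.0579 CPM in mutants and 0.614 ± 0.134 CPM in controls (SD, n = 5 each), which limits its precision. Srebf2, the SREBP gene tied most closely to sterol synthesis, was at 112 ± 10.2 CPM in mutants and 104 ± 20.7 CPM in controls (SD, n = 5 each), and insig1, a sterol-sensing retention factor, at 29.5 ± 4.61 CPM in mutants and 25.2 ± 3.13 CPM in controls (SD, n = 5 each). Both were chosen for their role, and neither passed after adjustment. With the block, the log2 fold change was 0.12 for srebf2 and 0.22 for insig1, and each was higher in 3 of 5 pairs. Insig1 was among the 4 with an unadjusted edgeR p under 0.05 (0.016), and srebf2 was not.

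The list for isoprenoid branches other than sterol synthesis also holds genes that process prenylated proteins (icmt, zmpste24 and rce1a). Its 15 tested genes had a median of -0.04, and 11 of the 15 had blocked estimates below 0. In edgeR and DESeq2 0 passed with or without the block, where 0.00481% to 0.475% of all genes with an adjusted p did. An unadjusted edgeR p under 0.05 was found for 1.95% of all genes without the block and 10.5% with it, and for 1 of the 15 in each fit. This was cox10, which farnesylates heme, at 21.9 ± 1.25 CPM in mutants and 24.4 ± 0.953 CPM in controls (SD, n = 5 each). Its log2 fold change was -0.16 (SE 0.0662), and its adjusted p was 0.306 with the block in edgeR. All mutants (19.7 to 22.8 CPM) lay below all controls (23.5 to 25.6 CPM), and the mutant was higher in 0 of 5 pairs. Cox10 was named for having the smallest p of its list, so nothing is read from that separation. In the list for acetyl-CoA supply and fatty acid synthesis, 13 genes were tested and the median was 0.03. With the block, where 0.178% of all genes rose past the threshold, 2 rose and 0 fell. They were elovl6, a fatty acid elongase, with a log2 fold change of 0.28 (edgeR adjusted p = 0.0367), and fads2, a fatty acid desaturase, with 0.54 (edgeR adjusted p = 0.0470). Both were higher in 5 of 5 pairs, but of the 5 settings that left out a pair both passed only in that without pair 4. Neither passed without the block, where 1 of the 13 (fads2) had an unadjusted edgeR p under 0.05, as did 1.95% of all genes. Aclya, which makes cytosolic acetyl-CoA, was at 120.3 ± 6.99 CPM in mutants and 117 ± 8.03 CPM in controls (SD, n = 5 each), and fasn, fatty acid synthase, at 15.95 ± 3.69 CPM in mutants and 16.2 ± 2.64 CPM in controls (SD, n = 5 each). These comparisons share all libraries with those of the 10 genes, and whether one list differs from another was not tested.

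**Figure D5:**
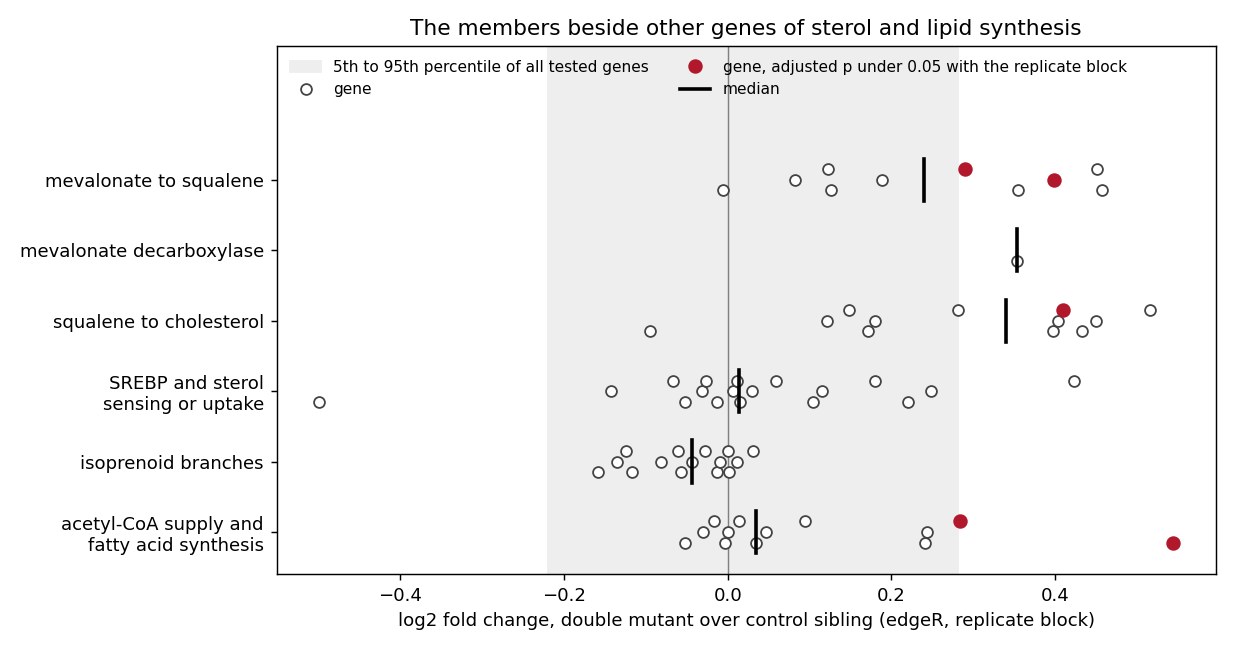
Blocked edgeR log2 fold change (double mutant over control sibling) of the tested genes of each list, with a bar for the list's median, filled points for genes with an adjusted p under 0.05, and grey for the 5th to 95th percentile of all tested genes (-0.22 to 0.28). The medians are 0.24 for mevalonate to squalene and 0.34 for squalene to cholesterol. Those for SREBP and sterol sensing, uptake or export, for isoprenoid branches and for fatty acid synthesis are 0.01, -0.04 and 0.03. Sterol synthesis genes had been picked with this contrast known, so their higher medians restate the choice and support nothing.

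In the gene order of the assembly GRCz12tu, none of the 10 genes lies on the chromosome of rbpms2a or rbpms2b, where homozygous mutants share flanking sequence. Of the protein-coding genes directly beside a member, 10 were tested. With the block in edgeR 0 of them passed, where 0.255% of all genes did, so nothing is read from this count. Their median blocked log2 fold change was -0.01, from -0.44 (kif25, next to acat2) to 0.13 (mmab, next to mvk). Rusc1, next to fdps, was at -0.03 and gata4, next to fdft1, at 0.01.

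The genes whose 5 pair ratios came closest to the median profile of the members were zgc:101663, prkab1b, akr1a1b, ceacam1 and serpinb1. Their root mean square difference from that profile over the 5 pairs was 0.04 to 0.05 log2 units, among 10393 other genes with a mean of at least 10 CPM, whose median difference was 0.23. Prkab1b codes for a beta subunit of AMP-activated protein kinase and was at 44.2 ± 3.19 CPM in mutants and 38.6 ± 1.11 CPM in controls (SD, n = 5 each). Among the members, idi1 (0.08) and acat2 (0.11) lay closest to this median profile, and hmgcra (0.48) and fdft1 (0.34) farthest from it. Since the profile was taken from the members themselves, their closeness to it is partly built in. Hmgcra, fdft1 and pmvk (0.30) lay farther from it than the median of the other genes. Their own mean levels were below the 10 CPM asked of those genes, so the comparison is not between like levels. Fdps, at 0.24, lay close to that median of 0.23.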

How the data were processed

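The authors deposited 1 table with, for each of the 10 libraries, expected counts per gene (estimated counts that need not be whole) and log2(FPKM + 0.1), whose lowest value is -3.32. Per the submitters' processing notes, the tools included STAR 2.5.3a and RSEM 1.3.0 and the build was GRCz10. For the annotation release and for strand use in counting, the sources used here give nothing, so overlapping and antisense genes are uncertain. Gene lengths, per the file headers, are in bases and served for the alternative level per length.

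Rounded expected counts were fitted with edgeR 4.0.16 in R 4.3.3, using filterByExpr, TMM scaling and its robust quasi-likelihood test of double mutants against control siblings, two-sided, with Benjamini-Hochberg adjustment over 20802 genes and a threshold of 0.05. The common biological coefficient of variation was 17.6% without and 6.94% with the replicate number as a block. Libraries of the same number correlated at 0.53 to 0.59 in their deviations from the group means over all tested genes, over 0.1 in 5 of 5 pairs (libraries of different numbers -0.44 to 0.50), so the numbers were read as pairs, a reading that comes from the data and not from a label. CPM use the TMM factors. FPKM values are the deposited logarithms undone. The scripts were tested on simulated counts. DESeq2 1.42.0 and limma 3.58.1 served as alternatives. The members and lists were chosen with earlier results of these data known. Genes named were the 10 members; of each list, the genes past the threshold in either edgeR fit, or else the gene with the smallest p in each; and the 5 genes closest to the members' pair ratios. Lbr, srebf2, insig1, aclya, fasn, rusc1, gata4, kif25 and mmab fall outside that rule and were chosen for their role, direction, size of change or place after their values were seen. Symbols are those of the table, and 8 of the 10 matched a separate table of IDs and symbols, ignoring case. No sequences were used here.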

Additional observations from a re-analysis of the deposited data

Results flagged for a closer look

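Of 20 groups of 5 libraries (the 10 genes in mutants and in controls), 1 held a library far from the other 4, where chance flags about 1 in 20. It was pmvk in mutant 4, at 2.31 CPM, while the other mutants lay between 3.19 and 3.51 CPM. The gap to the nearest mutant was 0.732 of the group's range, above the critical value of 0.71. Control 4, at 1.55 CPM, was also the lowest control for pmvk.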

How the results depend on the processing

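Without the block, edgeR called 1 of all tested genes, DESeq2 6, and limma-trend 0 with 0.1 added to FPKM and 2 with 1 added; leaving out a library gave 0 to 3. With the replicate block edgeR called 53 and DESeq2 93, and edgeR called 17, 17, 21, 365 and 79 without pairs 1, 2, 3, 4 and 6. Members called were 0 without the block, also without any single library, 1 with DESeq2 and 2 with the replicate block in edgeR and in DESeq2. Without a pair this was 1 to 3: fdps in all 5 settings, joined by hmgcs1 and idi1 without pair 4. The median of the members was 0.24 and ran from 0.17 (without control 4) to 0.30 when a library was left out. It was 0.12 over the 3 genes with whole counts, a setting chosen after seeing the data. For squalene to cholesterol the count was 1 with the block in edgeR and DESeq2, and 1 to 3 without a pair; for fatty acid synthesis it was 2 in edgeR and 1 in DESeq2, and 0 to 2 without a pair. The sign turned for hmgcrb (0.0080 and 0.0075 with limma-trend and 0.1 or 1 added to FPKM; -0.041 to 0.036 without a library; 0.013 without pair 4 and 7.3e-05 without pair 6) and for mvk (-0.0052 without control 3, and up to 0.19 without another library). In all of these the cause was not tested, except that leaving libraries out tests fewer samples. The other 8 genes kept their sign in all 24 alternatives. The members that passed for the replicate number were 5 to 8 without a number. With the DESeq2 likelihood ratio test they were 4 (acat2, hmgcs1, hmgcra and ggps1), without hmgcrb and idi1. Depth limits mvk, pmvk, hmgcra and fdft1, which had 54.8 to 232 counts per library.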
